A study of Homo sapiens with 6 samples.

Results

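The genes described here are 10 immediate early genes: the EGR family (EGR1, EGR2 and EGR3), the NR4A family (NR4A1, NR4A2 and NR4A3), 3 members of the FOS family (FOS, FOSB and FOSL1) and IER3. Their transcripts were assayed with Affymetrix whole-transcript arrays in MDA-MB-231, a mesenchymal-type line from a breast carcinoma without oestrogen, progesterone or amplified HER2 receptors. In the treated group, 3 cultures received 10 µM YW3-56, an inhibitor of the peptidylarginine deiminases, for 8 h. In the control group, 3 cultures received the solvent DMSO, for which the labels give no separate time. All cultures grew in serum-containing medium, and the labels call the replicates biological. A member was taken through probe sets annotated to that gene alone, and the brightest of them on average represented it. This gave 9 measured members, through 11 probe sets, among 18417 tested genes. EGR2 matched no such probe set and its expression was not analysed here.

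Immediate early genes are transcribed within minutes of a growth factor, stress or calcium signal, without new protein synthesis, and their transcripts are usually short-lived. Signals through ERK reach them by way of serum response factor (SRF) and its ELK partners on CArG boxes, and signals through cAMP, calcium or stress kinases by way of CREB-type factors on cAMP response elements (CREs). EGR proteins are zinc finger transcription factors, NR4A proteins are orphan nuclear receptors, and FOS proteins pair with JUN proteins to form AP-1. FOSL1, also called FRA1, is the FOS family member known for high levels in mesenchymal breast cancer cells, and IER3 is a short stress-inducible protein that modulates survival and ERK signalling.

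Promoter sequence is shown for 2 of the members that rose, EGR1 and NR4A3, and for FOS and FOSB, which did not pass the test, because the same signals are known to reach these genes. RefSeq (GRCh38.p14) promoter entries were used for 6 of the 10 listed members. None was found for NR4A2, FOSL1 or IER3, and entries on the chromosome of EGR3 were left out of the search. The 250 bases before the annotated start are printed 5′ to 3′ on the plus strand. The windows are chr5:138465229-138465478 for EGR1, chr9:99821635-99821884 for NR4A3, chr14:75278578-75278827 for FOS and chr19:45467746-45467995 for FOSB. Capitals mark CArG boxes and the CRE half-site TGACG on either strand.
EGR1: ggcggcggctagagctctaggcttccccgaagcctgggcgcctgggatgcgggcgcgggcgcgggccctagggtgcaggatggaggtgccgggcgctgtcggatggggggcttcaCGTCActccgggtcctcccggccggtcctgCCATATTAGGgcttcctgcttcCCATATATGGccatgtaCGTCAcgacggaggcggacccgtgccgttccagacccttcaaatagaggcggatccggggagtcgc
NR4A3: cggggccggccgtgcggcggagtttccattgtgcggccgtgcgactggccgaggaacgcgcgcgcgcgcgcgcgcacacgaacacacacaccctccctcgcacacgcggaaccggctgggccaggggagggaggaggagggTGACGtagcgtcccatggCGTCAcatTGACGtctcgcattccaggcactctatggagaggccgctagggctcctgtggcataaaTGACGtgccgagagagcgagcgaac
FOS: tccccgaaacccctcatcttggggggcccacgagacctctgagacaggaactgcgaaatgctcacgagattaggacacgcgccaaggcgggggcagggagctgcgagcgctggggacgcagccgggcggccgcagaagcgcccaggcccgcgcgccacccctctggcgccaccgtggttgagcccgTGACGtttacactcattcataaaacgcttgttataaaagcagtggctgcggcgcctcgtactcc
FOSB: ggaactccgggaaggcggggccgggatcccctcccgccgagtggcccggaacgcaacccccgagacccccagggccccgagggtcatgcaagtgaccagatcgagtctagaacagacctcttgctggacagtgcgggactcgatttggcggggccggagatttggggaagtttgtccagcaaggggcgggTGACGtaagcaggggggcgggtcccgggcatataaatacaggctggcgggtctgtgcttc
The EGR1 window held 2 CArG boxes, CCATATTAGG from 105 to 96 bases and CCATATATGG from 83 to 74 bases before the start, and 2 CRE half-sites. The NR4A3 window held 4 CRE half-sites and no CArG box, and FOS and FOSB held 1 CRE half-site each, 64 to 60 and 60 to 56 bases before the start, with a TATAAA match downstream of it. A CArG box was present in 1.16% and TGACG in 21.2% of 35116 RefSeq promoter windows of this length, scanned on both strands. The whole CRE TGACGTCA, which contains the half-site and was present in 1.65% of windows, and the AP-1 motif TGANTCA, present in 6.57%, matched none of these 4 windows. The EGR motif GCGNGGGCG, present in 8.41%, matched once, in EGR1. Neither of the 2 NR4A1 windows held any of these motifs or TATAAA, which was present in 10.7% of windows. EGR2 had 3 windows, of which 1 held a CArG box, CCATATATGG from 71 to 62 bases before the start, and 2 CRE half-sites. The other EGR2 windows held none of these motifs. Matches are letters in a window and were not tested as binding sites. Sequence outside the 250 bases before the start was not scanned, so a motif without a match here can still lie farther upstream.

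The arrays are compared on the log2 scale of the deposited RMA values, so a difference of 1 is a doubling. Values of different genes are not set against each other, because each probe set has its own brightness. Each value reflects a transcript's share of the RNA of a whole culture. Fewer cells expressing the transcript and less of it per cell cannot be told apart. DMSO replicate 1 stood apart from the other arrays on the second principal component (21.9% of the variance), so member changes are also given without it. Markers matched the label in part. All 5 genes listed as abundant in mesenchymal breast cancer lines lay at or above the 95.8 percentile of mean signal, whereas ESR1, PGR, CDH1 and GATA3 lay between the 8.88 and 35.2 percentile and ERBB2 at 65.5. Of 6 measured markers of blood, endothelial and fat cells, CD68 was bright (97.5 percentile) and the other 5 lay at or below 21.7. Of these markers KRT18 (log2 fold change -0.27, adjusted p = 0.0397) and GATA3 (-0.37, 0.0224) were lower in YW3-56 in limma, and their part in the results was not tested.

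At an adjusted p under 0.05 in limma, 5 of the 9 measured members were called, 3 of them higher and 2 lower in YW3-56. EGR1, NR4A2 and NR4A3 rose, FOSL1 and IER3 fell, and EGR3, NR4A1, FOS and FOSB did not pass. The share of all tested genes called was 21.4%, with 9.84% higher and 11.5% lower. Calls were more frequent in a refit of the brighter genes alone, which also renewed the shared variance and the p adjustment. In that refit, with genes dimmer than the median left out, 4160 of 9209 genes were called, beside 4 of the 4 members kept. The number of all genes called was 3933, and it was 2364 without YW3-56 replicate 3. The treated arrays lay entirely above or below the DMSO arrays for the same 5 members, against 36.9% of all genes. At least a 2-fold change was called for EGR1, NR4A2 and IER3, against 1.42% of all genes. The members' median log2 fold change was 0.14, beside -0.05 for all genes. The same 5 members were called without DMSO replicate 1.

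**Figure D1:**
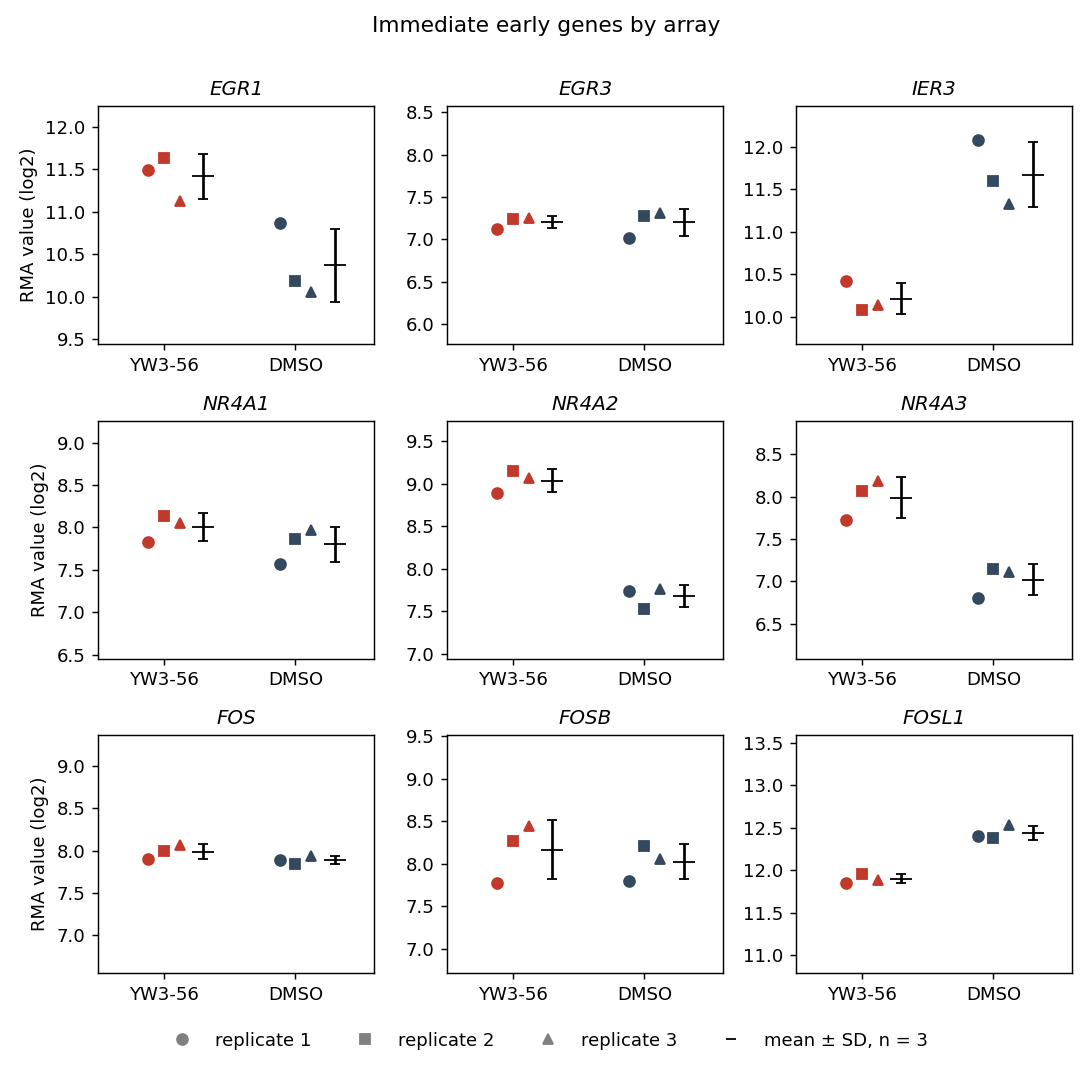
RMA value (log2) of each measured immediate early gene in the 3 YW3-56 and 3 DMSO arrays, with marker shape for the replicate number and mean ± SD (n = 3) beside the points; every panel spans the same number of log2 units. The treated points of EGR1, NR4A2 and NR4A3 lie above and those of FOSL1 and IER3 below the DMSO points, while the groups overlap for EGR3, NR4A1, FOS and FOSB.

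EGR1 is the serum- and stress-inducible founder of its family and a regulator of growth and survival genes. EGR1 had log2 values of 11.49, 11.63 and 11.12 in the YW3-56 arrays, against 10.86, 10.18 and 10.05 in the DMSO arrays. All treated values were higher than all DMSO values, and DMSO replicate 1 was the highest control. This was a 2.07-fold rise, or 1.05 ± 0.21 (SE, n = 3 per group) in log2 units, with a 95% confidence interval (CI) from 0.56 to 1.54 and an adjusted p of 0.00993 in limma. Without DMSO replicate 1 the change was 1.30. A per-gene test without shared variance did not call EGR1 (adjusted p = 0.0995), and over the 15 alternatives its adjusted p ran from 3.3e-04 to that value.

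EGR3, a family member that EGR1-activating signals also induce, had log2 values of 7.12, 7.24 and 7.25 in YW3-56 and 7.02, 7.28 and 7.31 in DMSO. The treated values lay inside the range of the DMSO values. The log2 fold change was 0.00 ± 0.10 with a CI from -0.22 to 0.22 (limma adjusted p = 0.999). Its mean signal lay at the 31.5 percentile of tested genes and was not shown to be above background, so the interval describes the probe set's signal and sets no limit on the transcript, and the change was -0.09 without DMSO replicate 1. The within-array difference between EGR1 and EGR3 was larger by 1.05 in YW3-56 than in DMSO (exact permutation test, two-sided, p = 0.1).

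NR4A2, also called NURR1, is an orphan nuclear receptor induced by cAMP, growth factors and stress. NR4A2 had the largest rise of the 9 members, with log2 values of 8.89, 9.16 and 9.07 in YW3-56, against 7.74, 7.53 and 7.77 in DMSO. The groups were more than 1 log2 unit apart at their nearest arrays. NR4A2 was 2.57-fold higher (1.36 ± 0.10 SE, n = 3, limma adjusted p = 0.00015; CI from 1.13 to 1.59), and the change was 1.39 without DMSO replicate 1.

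NR4A3, or NOR1, another receptor of the family that binds the same response elements, had log2 values of 7.72, 8.06 and 8.18 in YW3-56, against 6.81, 7.14 and 7.11 in DMSO. The lowest treated value lay above the highest DMSO value. NR4A3 was 1.95-fold higher (0.97 ± 0.14 SE, n = 3, limma adjusted p = 0.00211; CI from 0.65 to 1.28), and 0.86 higher on the log2 scale without DMSO replicate 1.

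NR4A1, or NUR77, the family member best known for roles in apoptosis and T cell signalling, had log2 values of 7.82, 8.14 and 8.05 in YW3-56 and 7.57, 7.86 and 7.97 in DMSO. Within each replicate number the treated value was the higher one, but the groups overlapped. Its log2 fold change of 0.20 ± 0.12 did not pass (limma adjusted p = 0.328, CI from -0.08 to 0.49), and it was 0.09 without DMSO replicate 1. In a fit blocked on the replicate number the SE was 0.07, and NR4A1 did not pass either (limma adjusted p = 0.0908). The within-array difference to NR4A1 was larger in YW3-56 by 1.16 for NR4A2 and by 0.77 for NR4A3, without overlap between groups (exact permutation test, p = 0.1 for each). The difference between NR4A2 and NR4A3 was larger in YW3-56 by 0.39, with overlapping groups (exact p = 0.2).

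FOS, the prototype of the AP-1 family, had log2 values of 7.90, 8.00 and 8.07 in YW3-56 and 7.89, 7.85 and 7.94 in DMSO. The groups overlapped within a narrow range. The log2 fold change of FOS was 0.09 ± 0.08 (limma adjusted p = 0.475), with a CI from -0.08 to 0.27 for its signal. FOSB, which is induced with FOS and is known for a long-lived splice form, had 7.78, 8.27 and 8.45 in YW3-56 and 7.80, 8.21 and 8.05 in DMSO. Replicate 1 was the lowest array in both groups, and the change of 0.14 ± 0.18 did not pass (limma adjusted p = 0.662; CI from -0.26 to 0.55). Without DMSO replicate 1 the changes were 0.10 for FOS and 0.03 for FOSB.

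FOSL1 differs from FOS and FOSB in lacking a transactivation domain of its own. FOSL1 was bright in every array, with log2 values of 11.85, 11.95 and 11.89 in YW3-56, against 12.40, 12.38 and 12.53 in DMSO. The groups were apart by several times their spread (SD 0.05 in YW3-56 and 0.08 in DMSO). FOSL1 was 1.45-fold lower (-0.54 ± 0.08 SE, n = 3, limma adjusted p = 0.00206; CI from -0.71 to -0.36), and the change was -0.56 without DMSO replicate 1. Relative to FOS and FOSB in the same arrays, FOSL1 changed by -0.63 and -0.68, without overlap between groups (exact permutation test, p = 0.1 for each).

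IER3 showed the largest fall of the 9 members. It had log2 values of 10.43, 10.08 and 10.14 in YW3-56, against 12.09, 11.60 and 11.33 in DMSO. The DMSO arrays were spread over a wider range, with replicate 1 highest, but all lay well above the treated arrays. IER3 was 2.75-fold lower (-1.46 ± 0.18 SE, n = 3, limma adjusted p = 0.00118; CI from -1.88 to -1.04), and the change was -1.25 without DMSO replicate 1. IER3 was the only measured member with more than 1 probe set. Its other 2 probe sets held identical values in all 6 arrays, so they count as 1 measurement, and in a fit over all 33297 probe sets, of which 12% were called, they changed by -1.45 ± 0.16 (limma adjusted p = 0.00311).

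The within-array comparisons cover 6 pairs of members. With 3 arrays per group the smallest exact two-sided p is 0.1, so none could pass 0.05, and after Benjamini-Hochberg adjustment the values were 0.12 for 5 pairs and 0.2 for NR4A2 with NR4A3. In those 5 pairs a called member was set against one not called, so the comparison restates the calls and is no separate test. The plot of member changes places each estimate beside its alternatives.

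**Figure D2:**
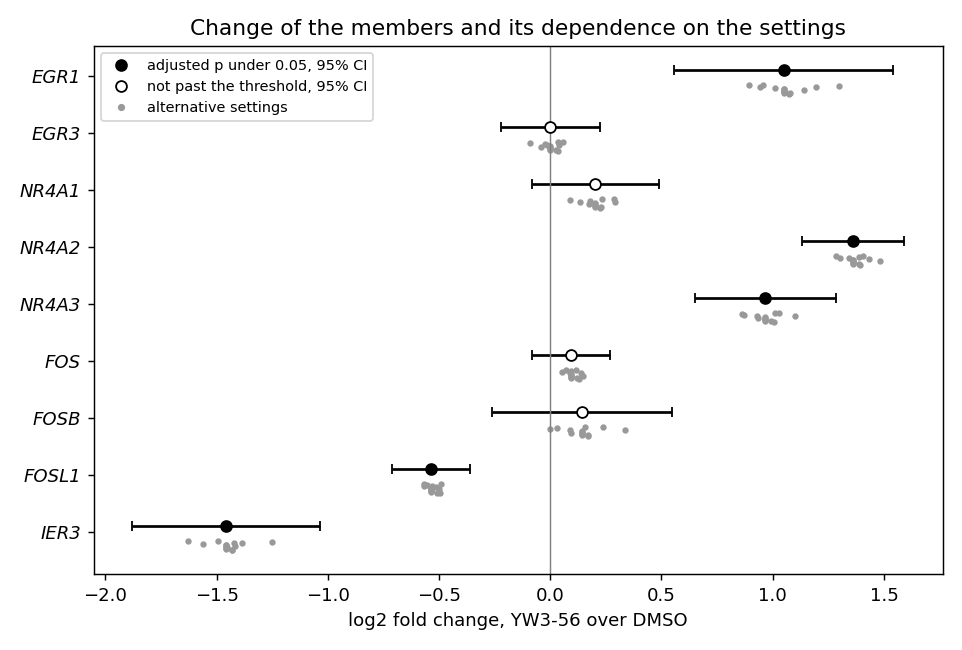
Log2 fold change of YW3-56 over DMSO for the 9 measured members (large circles, filled where the limma adjusted p is under 0.05, with the 95% CI) and under the alternative settings (small grey points). The points of EGR1, NR4A2, NR4A3, FOSL1 and IER3 stay on 1 side of 0, those of EGR3 lie on both sides, and those of NR4A1, FOS and FOSB lie at or above 0, within intervals that cross it.

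FOS proteins bind DNA as dimers, so the other bZIP proteins of that network were counted next. The list of 13 measured genes holds FOSL2, itself a FOS family member, and not every other gene in it pairs with FOS proteins. There were 7 rises, 3 falls and 3 genes short of the threshold, and the list's median change was 0.47 (log2). The rises were those of JDP2 (1.51 ± 0.17), a repressor that competes at AP-1 sites, MAFG (1.01 ± 0.08) and MAFF (0.52 ± 0.07), small MAF proteins without a transactivation domain, the stress-induced ATF3 (0.72 ± 0.10), JUND (0.68 ± 0.08), JUNB (0.55 ± 0.10) and ATF2 (0.47 ± 0.07). FOSL2 (-0.44 ± 0.10), the closest relative of FOSL1, and the immune-cell factors BATF3 (-0.50 ± 0.08) and BATF (-0.30 ± 0.07) fell. In limma the smallest adjusted p of the 10 was 1.8e-04 and the largest 0.0178. The MAFG value is that of its brightest probe set, and with probe sets averaged its change was 0.79 ± 0.09. JUN, the main partner of FOS, had values of 10.59, 10.25 and 10.68 in YW3-56, against 10.85, 10.77 and 10.95 in DMSO. Its treated arrays were all lower, but the change of -0.35 ± 0.12 did not pass (limma adjusted p = 0.0708). JUN passed in a fit blocked on the replicate number (0.0214), with a trended and robust prior (0.0271) and with genes dimmer than the median left out (0.0334), in a range up to 0.202 over its 15 alternatives. The FOSL2 call was lost without YW3-56 replicate 2 (0.0697) and in the per-gene test (0.0819), and the BATF call without YW3-56 replicate 3 (0.0882) or DMSO replicate 2 (0.0727). Over their alternatives, adjusted p ran from 0.00361 to 0.0819 for FOSL2 and from 0.00242 to 0.0882 for BATF.

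**Figure D3:**
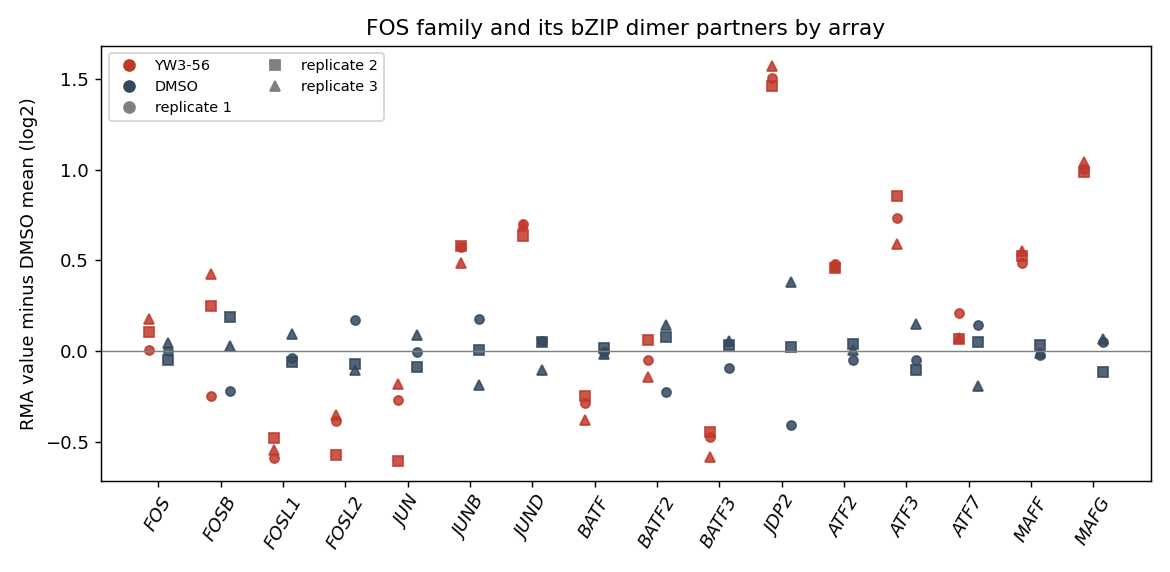
RMA value of each array minus the gene's DMSO mean (log2) for the FOS family and other measured bZIP genes of its network, with YW3-56 in red left of DMSO in blue and marker shape for the replicate number. The treated points of JDP2 and MAFG lie farthest above the DMSO mean (mean changes 1.51 and 1.01), those of FOSL1, FOSL2, BATF and BATF3 lie below, and those of FOS, FOSB, BATF2 and ATF7 are mixed with the DMSO points.

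Other early response genes also moved both ways. Among 23 measured there were 9 rises, 2 falls and 12 genes short of the threshold (median 0.14). RGS2 (1.10 ± 0.13), which turns off Gq signalling, SGK1 (1.00 ± 0.13), a serum- and glucocorticoid-regulated kinase, and the MAPK phosphatase DUSP1 (0.79 ± 0.14) rose most. PHLDA1, an ERK-responsive gene, fell by 1.19 on the log2 scale, with values of 9.52, 9.67 and 9.53 in YW3-56, against 10.73, 10.75 and 10.82 in DMSO, and KLF10 changed by -0.41 ± 0.09. Their adjusted p in limma ran from 1.0e-04 for PHLDA1 to 0.0143 for KLF10. The per-gene test did not call DUSP1 (adjusted p = 0.063, the highest of its 15 alternatives, the lowest being 1.1e-04). KLF10 was lost in the same test (0.0595) and without YW3-56 replicate 2 (0.0634), in a range from 0.00472. CCN2, a matrix protein gene, passed narrowly (0.25 ± 0.07, adjusted p = 0.0481). It did not pass with replicate number as a block (0.053) or when any 1 array was left out (0.0538 to 0.175), and its lowest value over alternatives was 0.00423.

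Transcription factors and cofactors of immediate early promoters were divided as well, with 4 of 15 higher, 4 lower and 7 not past, and a median of 0.02. The acetyltransferases EP300 (0.88 ± 0.08) and CREBBP (0.67 ± 0.07), which CREB recruits, rose, as did MEF2D (0.53 ± 0.07) and SRF (0.28 ± 0.07). MEF2C (-0.85 ± 0.15), the SRF coactivator MRTFB (-0.60 ± 0.09), the SRF partner ELK3 (-0.49 ± 0.08) and MEF2A (-0.37 ± 0.09) fell. Their adjusted p in limma ran from 4.0e-04 for EP300 to 0.0242 for SRF. The SRF call was lost without YW3-56 replicate 1 (0.083), 2 (0.0787) or 3 (0.0718) and without DMSO replicate 2 (0.0843) or 3 (0.065). MEF2A was lost without YW3-56 replicate 2 (0.0933) or 3 (0.0915), without DMSO replicate 3 (0.0599) and in the per-gene test (0.0811), which also ended the MEF2C call (0.0629). The lowest adjusted p over alternatives was 0.00174 for SRF, 0.00812 for MEF2A and 2.0e-04 for MEF2C.

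The corepressors and partners of EGR and NR4A proteins gave no call in limma, with 0 of 5 measured genes past the threshold and 1, RXRB, at an unadjusted p under 0.05, a level that 31.6% of all genes reached. NAB2, an EGR-induced corepressor of EGR1, had 8.68, 8.72 and 8.74 in YW3-56, against 8.66, 8.48 and 8.60 in DMSO, a change of 0.13 ± 0.08 (adjusted p = 0.288). NAB2 passed with array weights (0.0275), in a range up to 0.635 over 15 alternatives. NAB1 changed by 0.05 ± 0.14, an estimate that took either sign when single arrays were left out.

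In the cascade from EGFR and RAS to ERK and its kinases, there were 4 rises, 3 falls and 8 genes short of the threshold among 15 measured (median -0.14). MAP2K5 (0.69 ± 0.11) and MAPK7 (0.35 ± 0.09), the MEK5 and ERK5 kinases, and the ribosomal S6 kinase family genes RPS6KA2 (0.56 ± 0.11) and RPS6KA5 (0.30 ± 0.08) rose. RPS6KA1 (-0.51 ± 0.08), ARAF (-0.36 ± 0.10) and the adaptor GRB2 (-0.29 ± 0.08) fell. Their adjusted p in limma ran from 0.00262 for RPS6KA1 to 0.0377 for ARAF. The calls of MAPK7, RPS6KA5, ARAF and GRB2 were each lost when several single arrays were left out. Without YW3-56 replicate 2 the adjusted p was 0.0922, 0.0838, 0.135 and 0.125 for these 4, and without YW3-56 replicate 3 it was 0.105, 0.0837, 0.135 and 0.092. Without YW3-56 replicate 1 it was 0.0877 for RPS6KA5 and 0.0921 for GRB2. Without DMSO replicate 1 it was 0.0597 for ARAF and 0.0608 for GRB2. Without DMSO replicate 2 it was 0.098 for MAPK7, 0.111 for RPS6KA5 and 0.105 for ARAF, and without DMSO replicate 3 it was 0.0644 for MAPK7, 0.0558 for RPS6KA5 and 0.0771 for GRB2. Centring of each array also ended ARAF (0.0709) and GRB2 (0.0797), and the per-gene test ended RPS6KA2 (0.0624), MAPK7 (0.0745), RPS6KA5 (0.0514), ARAF (0.121) and GRB2 (0.0635). The lowest values over alternatives were 0.0011 for MAPK7, 0.00174 for RPS6KA5, 0.00213 for RPS6KA2, 0.00426 for ARAF and 0.00878 for GRB2.

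Immediate early transcripts carry AU-rich elements, and of 15 measured genes for AU-rich element binding or mRNA decay 5 rose, 3 fell and 7 did not pass (median 0.06). The deadenylase subunits CNOT6L (0.91 ± 0.11) and CNOT8 (0.60 ± 0.08) led the rises, with limma adjusted p of 9.7e-04 and 0.0014. PAN2 (0.53 ± 0.11), another deadenylase, ZFP36 (0.43 ± 0.10), whose protein destabilises AU-rich transcripts, and the decapping enzyme DCP2 (0.34 ± 0.07) followed. The falls were those of ELAVL1 (-0.38 ± 0.08), which stabilises such transcripts, HNRNPD (-0.37 ± 0.07), which also binds them, and CNOT7 (-0.31 ± 0.07), a deadenylase subunit like CNOT8. In limma the adjusted p of the genes from PAN2 to CNOT7 lay between 0.00838 and 0.0148. The calls of PAN2 (0.0534), DCP2 (0.0634), ELAVL1 (0.0607) and CNOT7 (0.0612) were lost without YW3-56 replicate 3, those of ZFP36 (0.0576), ELAVL1 (0.0523) and CNOT7 (0.0704) without YW3-56 replicate 2, that of ZFP36 (0.0539) without YW3-56 replicate 1 and that of CNOT7 (0.0579) without DMSO replicate 2. The per-gene test ended PAN2 (0.0702) and ZFP36 (0.0703). The lowest values over alternatives were 6.7e-04 for PAN2, 0.00285 for DCP2, 0.00222 for ELAVL1, 0.00219 for CNOT7 and 0.00524 for ZFP36.

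Among 15 measured genes reported as AP-1 or FOSL1 targets, 6 fell, 0 rose and 9 did not pass in limma, with a median of -0.20, and 1 was higher and 7 were lower at an unadjusted p under 0.05, against 13.5% and 18.1% of all genes. IL11 (-1.30 ± 0.24), a cytokine, PLAU (-1.23 ± 0.17), which encodes urokinase, its receptor gene PLAUR (-0.63 ± 0.08) and the cyclin gene CCND1 (-0.78 ± 0.14) fell most, at adjusted p between 0.00106 and 0.00637. The chemokine CXCL8 (-0.46 ± 0.11) and the chromatin protein HMGA1 (-0.33 ± 0.08) followed, at 0.0161 and 0.0205. The per-gene test ended the calls of IL11 (0.0808), CCND1 (0.0632), CXCL8 (0.0838) and HMGA1 (0.0513). CXCL8 was lost without YW3-56 replicate 3 (0.0746), and HMGA1 without YW3-56 replicate 1 (0.0713) or 3 (0.0933) and without DMSO replicate 2 (0.0851) or 3 (0.0553). The lowest values over alternatives were 6.5e-04 for IL11, 3.4e-04 for CCND1, 0.00281 for CXCL8 and 0.00122 for HMGA1.

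Of 10 measured genes reported as EGR1 targets, 3 rose, 1 fell and 6 did not pass (median 0.04). VEGFA, the angiogenic growth factor (1.34 ± 0.16), PDGFA (0.41 ± 0.07) and the CDK inhibitor gene CDKN1A (0.49 ± 0.13) rose, and F3, tissue factor, fell by 1.66 on the log2 scale, with values of 9.12, 8.67 and 8.89 in YW3-56, against 10.96, 10.38 and 10.34 in DMSO. Their adjusted p in limma ran from 6.4e-04 for F3 to 0.0275 for CDKN1A. CDKN1A was lost without YW3-56 replicate 2 (0.0846) or 3 (0.0944), without DMSO replicate 2 (0.106) and in the per-gene test (0.134), in a range from 0.0016. With replicate number as a block, ICAM1 (-0.49, adjusted p = 0.0147) and TGFB1 (-0.28, 0.0216) also passed, which made 3 falls.

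**Figure D4:**
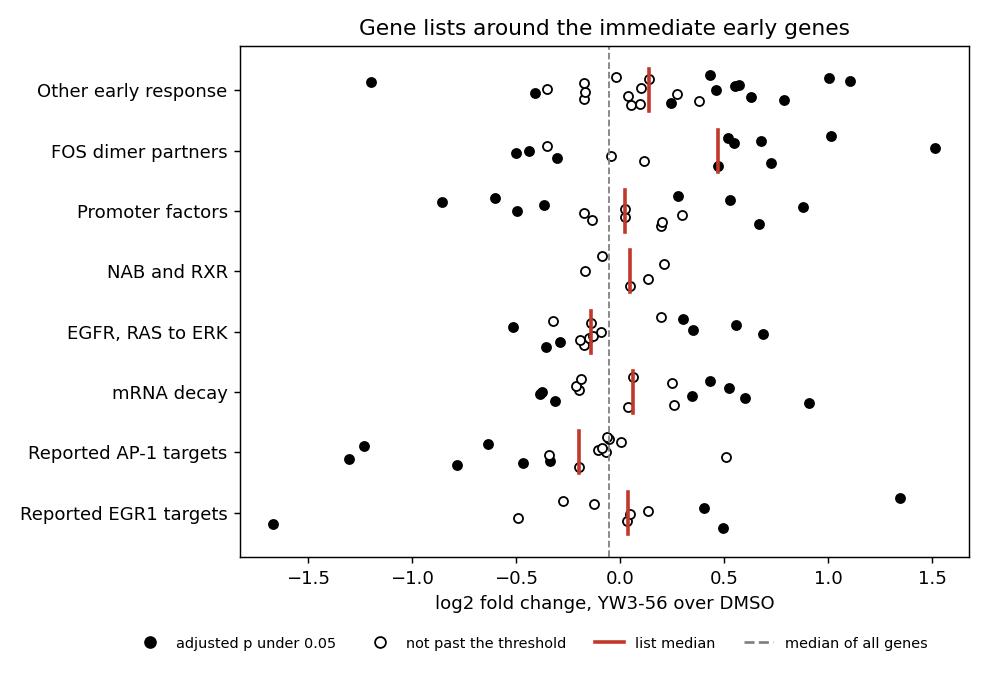
Log2 fold change of YW3-56 over DMSO for each measured gene of 8 lists around the immediate early genes, filled where the limma adjusted p is under 0.05, with the list median in red and the median of all genes (-0.05) as a dashed line. The list labelled FOS dimer partners, not all of which pair with FOS proteins, has the median farthest above 0 (0.47). The filled points of the reported AP-1 targets all lie below 0.

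Counts of these lists are read against the 21.4% of all genes called. Calls were more frequent in the refit of the brighter genes alone. With genes dimmer than the median left out, 4160 of 9209 genes and 61 of 89 list genes were called. Of the 108 tested genes of the 8 gene lists 53 were called, 31 higher and 22 lower. The lists were chosen with earlier results of these data known, and some genes stand in more than 1 of them, so the counts describe the lists and test nothing.

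The genes whose pattern over the 6 arrays was most like that of NR4A2 were S100PBP, DLGAP1-AS1 and TMEM154, with Pearson correlations of 0.999, 0.998 and 0.998. Their log2 fold changes were 0.47, 1.92 and 1.10. Those most like IER3 were ATR, BCCIP and TMEM156, each with a correlation of 0.999 and with changes of -0.60, -0.31 and -0.69. BCCIP was lost after centring of each array (0.0551) and without YW3-56 replicate 2 (0.0815) or 3 (0.0903) or DMSO replicate 2 (0.0732), in a range from 0.00312. The 6 arrays fall into the same groups for every gene, and these correlations are given as a description. Among members, NR4A3 correlated with NR4A2 at 0.94 and with IER3 at -0.98, over the same 6 arrays.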

How the data were processed

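RNA of 6 cultures was hybridised to 1 array each after whole-transcript biotin labelling, per the labels' protocols. The deposited log2 values were made by the authors with RMA and the affy package, per the submitters' processing notes; the versions of both are unstated there. RMA equalises arrays, so a shift of all transcripts would not show. Arrays carry no read depth, and their number limits precision. Of 33297 probe sets, 19460 had 1 gene symbol in the platform annotation, 1754 had several and 12083 had none; the brightest per gene gave 18417 genes. All 9 measured members matched RefSeq by Entrez identifier.

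Groups came from the treatment labels. The contrast of YW3-56 over DMSO was fitted in R 4.3.3 by limma 3.58.1 (lmFit, eBayes), two-sided, with Benjamini-Hochberg adjustment over all genes; scripts were tested on simulated data. The limma p-values measure the spread between these cultures, with each gene's variance drawn towards a value shared by all genes. Named genes were all members, up to 4 called genes per list with the largest change, all called genes where a list's count was 5 or fewer, and the 3 genes most correlated with the members of largest rise and fall. The other list genes given with values, among them JUN, NAB1 and NAB2, were named after their values were seen. Members and lists were chosen with earlier results of these data known.

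Deviations from group means correlated over genes at 0.54, 0.37 and 0.102 between arrays of the same replicate number, all over 0.1, the level taken as pairing; the labels do not state a shared batch, while YW3-56 replicate 2 had its highest value, 0.42, with DMSO replicate 3. The main fit carried no block for the replicate number. A blocked fit on the replicate number, other normalizations, filters, priors, weights and left-out arrays were alternatives. Some genes of the lists are not reported here.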

Additional observations from a re-analysis of the deposited data

How the results depend on the processing

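The 5 member calls and their directions held in all alternatives that tested them, except EGR1 in the per-gene test without shared variance; NR4A3 was left out when genes dimmer than the median were dropped, as were EGR3, NR4A1, FOS and FOSB, which passed in none of their 14 alternatives. With replicate number as a block, the number of all genes called was 4776 and the same 5 members passed, and of the 108 tested list genes 9 more passed (3 higher and 6 lower, JUN among them at 0.0214) and 1, CCN2, was lost (adjusted p = 0.053, in a range from 0.00423 to 0.175). All genes called numbered 6380 with array weights and 2364 (without YW3-56 replicate 3) to 4689 when 1 array was left out; the gene lists, with 53 called as reported, gave 38 to 55 when 1 array was left out, 38 in the per-gene test, 61 with the block, 65 with a trended and robust prior and 69 with array weights. EGR3 turned to -0.041 with array weights and ran from -0.091 to 0.055 without single arrays, and NAB1 from -0.048 to 0.19. Of 1053 pairs of a named gene and an alternative, 963 kept direction and call, 79 lost the call, 4 gained it and 7 changed sign. The causes were not tested. Members dim on the array (EGR3, NR4A1, NR4A3, FOS, FOSB) have no detection value here, and a single time point shows no earlier, transient induction.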
